A study of Mus musculus with 6 samples.

Results

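The laminins, the collagen IV chains and the other structural components and linkers of the basement membrane were examined as a group of 35 genes. The rule names them by what their products are known to be, and the group was chosen with earlier results of these data known. All 35 were found among the 56748 genes listed for each uterus, and all 35 were tested, among 16605 genes with enough counts.

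Whole-uterus RNA of 6 pregnant females, 3 control and 3 *Gp130* ecKO, was sequenced, all taken on day 4 at 1600 h, shortly before embryos attach. *Gp130* ecKO females carried *Ltf* iCre/+ with *Gp130* flox/flox, in which the lactoferrin promoter drives Cre recombinase in the uterine epithelium, and lactoferrin is also a product of neutrophils. Controls are labelled WT, and by the study's methods they were either *Ltf* +/+ with *Gp130* flox/flox or wildtype females, without a record here of which uterus was which. All females were C57BL/6 by the labels, sexually mature at over 8 weeks, and mated with fertile wildtype males. No source states that the 3 uteri of a group came from separate matings or days, so p-values measure only the spread between these uteri.

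The basement membrane is a thin sheet of matrix under every epithelium and endothelium and around each muscle cell. Laminins, which are trimers of an alpha, a beta and a gamma chain, polymerise on the cell surface, and a network of collagen IV trimers is joined to them by nidogens and by the heparan sulfate proteoglycans perlecan and agrin. In the uterus, the sheet under the luminal epithelium lies between the attaching blastocyst and the stroma, and decidualizing stromal cells later build a matrix of the same components around themselves.

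*Gp130*, listed as *Il6st*, had 631, 678 and 452 CPM (the count relative to a library size scaled with the TMM method of edgeR) in controls 1, 2 and 3 against 388, 349.8 and 362 in the *Gp130* ecKO uteri of the same order. The highest *Gp130* ecKO value was below the lowest control value, in RNA that also came from cells without Cre (log2 fold change −0.68, standard error 0.21, adjusted p = 0.120 in edgeR's quasi-likelihood test). Total counts per uterus ranged from 13960748, in control 3, to 25906443. Genes were called at a Benjamini-Hochberg adjusted p under 0.05 with more than 2-fold change, and 26 of all tested genes were called. This number changed when a uterus was left out, to 897 without control 2 and to between 1 and 6 without any other uterus.

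No basement membrane gene was called by the quasi-likelihood test, beside 0.157% of all tested genes. Most of the group nevertheless lay lower in *Gp130* ecKO uteri. The log2 fold change was below 0 in 27 of the 35 (77.1%), beside 52.9% of all tested genes, and its median was −0.62, beside −0.05 over all tested genes. Without control 2, 23 members were below 0 and the median was −0.37. With an unadjusted p under 0.05 there were 14 members, of which 11 were lower and 3 higher, which is 31.4% and 8.57% of the group. Over all tested genes the shares were 12.9% lower and 12.1% higher, and 25.0% in either direction. The 3 higher genes were *Lamb3*, *Agrn* and *Dag1*, and the 11 lower ones were *Lama1*, *Lama4*, *Lamc1*, *Col4a1*, *Col4a2*, *Hspg2*, *Col7a1*, *Col17a1*, *Fbln2*, *Npnt* and *Smoc2*. By CPM, the 2 groups of uteri did not overlap in 14 members, again 11 lower and 3 higher, beside 15.6% of all tested genes lower and 15.7% higher. Those were the same genes, except that *Fras1* stood in place of *Col7a1*. The share of counts from mitochondrial genes also separated the groups, from 3.98% to 5.30% in controls and from 2.40% to 3.78% in *Gp130* ecKO uteri, and its part in these values was not tested.

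Other tests on the same counts called part of the group. The exact test of edgeR called 6 members (*Lama1*, *Lamb3*, *Lamc1*, *Col4a1*, *Col4a2* and *Npnt*), beside 7.54% of all tested genes. The likelihood ratio test called the same 6, beside 7.93%. DESeq2 called these and *Col7a1*, beside 9.31%, and gave no adjusted p for *Col17a1*. Without control 2, the quasi-likelihood test called *Lamb3*, *Lamc1*, *Agrn* and *Npnt*, beside 5.23% of the genes then tested.

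**Figure D1:**
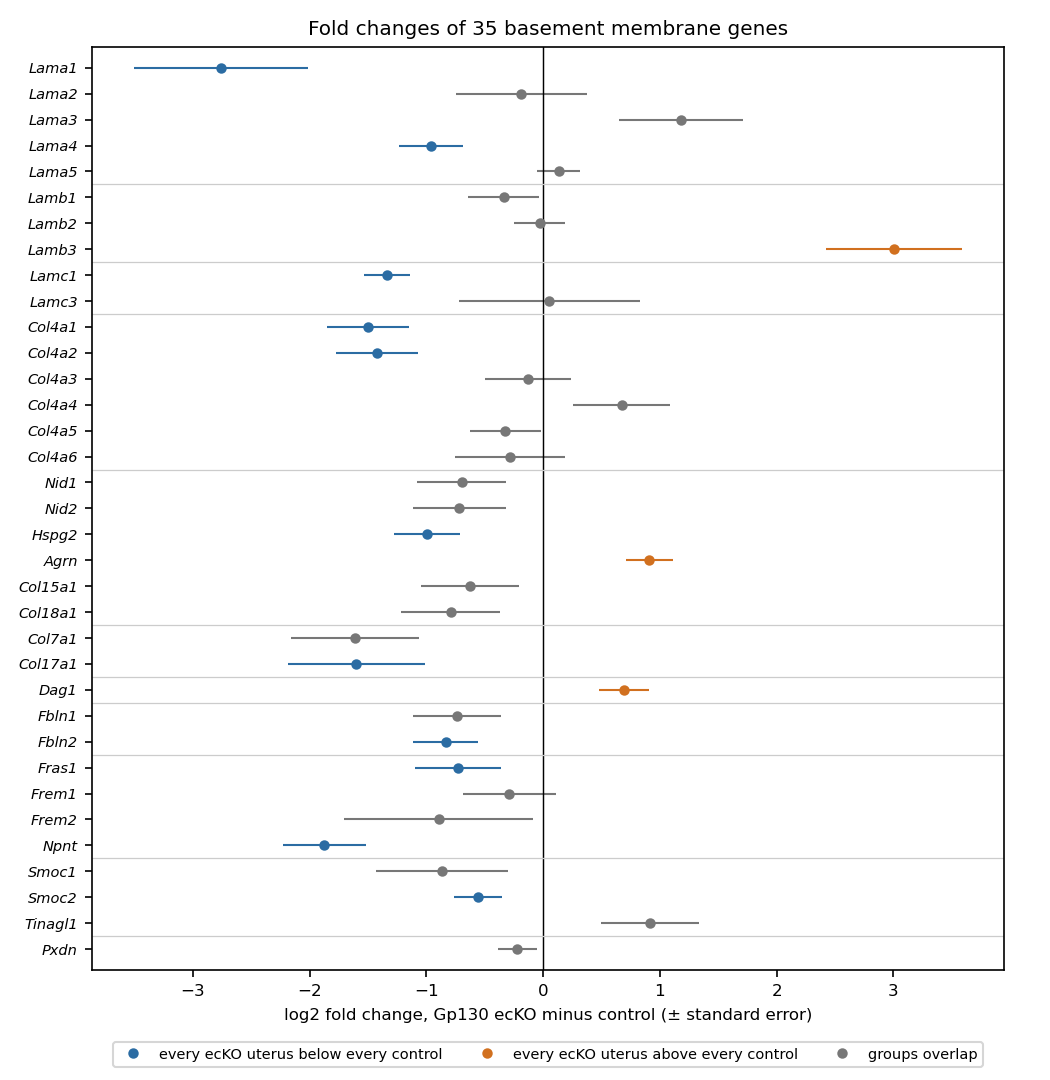
Log2 fold change of each of the 35 genes, *Gp130* ecKO minus control, with its standard error from edgeR's quasi-likelihood fit on 3 against 3 uteri. Grey lines separate the roles, and colour shows whether the CPM of the 2 groups overlap. The 27 genes left of 0 outnumber the 8 to its right, and *Lamb3* at 3.01 and *Lama1* at −2.76 lie farthest out.

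The upstream sequences of 4 members are printed as examples, 1 laminin chain, 1 integrin ligand and the 2 heparan sulfate proteoglycans that went in opposite directions. In each the groups did not overlap and the 250 bases before the annotated start of the main transcript held no exon of any gene, which is also true of *Lama1*, *Lama4*, *Col17a1*, *Fbln2* and *Smoc2*. *Lamc1*, *Npnt* and *Hspg2* were lower in *Gp130* ecKO uteri and *Agrn* was higher. The bases are those of GRCm39, at chr1:153208775-153209024 on the minus strand for *Lamc1*, chr3:132656258-132656507 on the minus strand for *Npnt*, chr4:137195829-137196078 on the plus strand for *Hspg2* and chr4:156282015-156282264 on the minus strand for *Agrn*. Each is written 5′ to 3′ on the strand of its gene, and capitals mark matches to a motif.
Lamc1: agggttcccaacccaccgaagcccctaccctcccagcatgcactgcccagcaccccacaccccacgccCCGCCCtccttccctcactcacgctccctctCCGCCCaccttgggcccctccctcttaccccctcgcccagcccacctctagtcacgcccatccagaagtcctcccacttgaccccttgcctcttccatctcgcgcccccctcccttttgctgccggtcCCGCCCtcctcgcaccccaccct
Npnt: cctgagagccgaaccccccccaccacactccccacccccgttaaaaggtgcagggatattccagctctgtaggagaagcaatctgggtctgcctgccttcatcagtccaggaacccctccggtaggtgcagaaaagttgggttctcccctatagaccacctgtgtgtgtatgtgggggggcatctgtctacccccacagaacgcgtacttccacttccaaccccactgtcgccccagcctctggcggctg
Hspg2: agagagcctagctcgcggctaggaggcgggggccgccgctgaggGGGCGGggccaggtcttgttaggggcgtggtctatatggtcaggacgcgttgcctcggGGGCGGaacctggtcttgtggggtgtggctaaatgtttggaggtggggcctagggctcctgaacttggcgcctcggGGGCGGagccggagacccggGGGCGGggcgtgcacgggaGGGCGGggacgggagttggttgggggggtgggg
Agrn: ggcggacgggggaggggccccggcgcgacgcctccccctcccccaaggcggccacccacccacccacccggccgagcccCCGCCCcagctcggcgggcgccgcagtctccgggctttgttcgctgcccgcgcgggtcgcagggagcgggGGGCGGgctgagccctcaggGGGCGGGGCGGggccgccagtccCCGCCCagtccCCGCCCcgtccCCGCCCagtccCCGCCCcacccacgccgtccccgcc

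The motifs searched on both strands were TTCNNNGAA, the letters that STAT proteins including STAT3 recognise, CCAAT, and GGGCGG, the GC box that Sp1-type factors bind. The *Lamc1* window held 3 GC boxes, *Hspg2* held 5 and *Agrn* held 8 and *Npnt* held none of the 3 motifs. Over the whole group, GGGCGG was in the 250-base window of 16 of 35 members, beside 44.2% of the 16559 windows of tested genes. CCAAT was in 15 of 35, beside 34.7%. TTCNNNGAA was in 4 of 35, beside 6.65%, and these were *Lamb2* (TTCCTCGAA, beginning at −196 from the start), *Col17a1* (TTCTAGGAA, at −201), *Frem1* (TTCCATGAA, at −249) and *Pxdn* (TTCCTAGAA, at −185). Of those 4, *Col17a1* alone had an unadjusted p under 0.05. A match is a description of letters in this window and says nothing of binding.

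Among the laminin alpha chains, *Lama4* and *Lama1* had a lower CPM in every *Gp130* ecKO uterus than in any control. Neither was called by the quasi-likelihood test, and the CPM of the epithelial *Lama5* overlapped between groups. *Lama4*, the alpha chain typical of endothelial basement membranes (chromosome 10, 38841141 to 38998403, plus strand), had a CPM of 52.1, 47.0 and 34.9 in controls 1 to 3 and 15.3, 28.3 and 25.2 in *Gp130* ecKO 1 to 3. The groups did not overlap, with *Gp130* ecKO 1 the lowest (log2 fold change −0.96, standard error 0.28, adjusted p = 0.111 in the quasi-likelihood test and 0.0309 with DESeq2). *Lama1*, the chain of laminin-111 that is best known from embryonic basement membranes (chromosome 17, 68004223 to 68129642, plus strand), had only 113, 31 and 20 counts in the controls and 14, 6 and 5 in *Gp130* ecKO uteri. Its CPM was 4.57, 1.20 and 1.33 against 0.633, 0.231 and 0.207, so that control 1 stood far above the other controls and the groups did not overlap. *Lama1* had a log2 fold change of −2.76 (standard error 0.74, quasi-likelihood adjusted p = 0.102), which was −1.81 without control 1 and −3.42 without *Gp130* ecKO 1.

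*Lama3*, the chain of the laminin that anchors epithelia through hemidesmosomes, had a CPM of 83.3, 41.5 and 45.3 in controls and 241, 63.1 and 81.9 in *Gp130* ecKO uteri. *Gp130* ecKO 1 was the highest of all, and *Gp130* ecKO 2 and 3 lay between control 1 and the other controls. The log2 fold change of 1.18 (standard error 0.53, quasi-likelihood adjusted p = 0.215, 0.117 with DESeq2) was 0.36 without *Gp130* ecKO 1. *Lama5*, the broadly used epithelial chain, ranged from 83.3 to 108 CPM in controls and from 100.1 to 128 in *Gp130* ecKO uteri (log2 fold change 0.13). *Lama2*, the chain of muscle and nerve basement membranes, ranged from 17.7 to 42.6 in controls and from 10.2 to 50.0 in *Gp130* ecKO uteri (log2 fold change −0.19), with wider spread inside each group than between the groups.

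*Lamb3*, the beta chain that pairs with *Lama3* in the hemidesmosomal laminin, had the largest log2 fold change of the group. It lies on chromosome 1 from 192890007 to 193027705 on the plus strand. Its CPM was 11.5, 16.7 and 8.07 in controls 1 to 3 and 174, 34.7 and 84.2 in *Gp130* ecKO 1 to 3, an 8.08-fold higher mean. The lowest *Gp130* ecKO uterus was above the highest control, and *Gp130* ecKO 1 was far above the other *Gp130* ecKO uteri. By the quasi-likelihood test the log2 fold change was 3.01 with a standard error of 0.58 (adjusted p = 0.0677, unadjusted p = 0.0011). It was 2.30 without *Gp130* ecKO 1 and 3.34 without control 2, where the adjusted p was 0.045. Leaving out any other uterus gave *Lamb3* an adjusted p between 0.0739 and 0.176 in the same test. The beta chains of most other laminins stood apart from this. *Lamb1* ranged from 109.5 to 147 CPM in controls and from 62.8 to 147 in *Gp130* ecKO uteri (log2 fold change −0.34), and *Lamb2* from 94.4 to 143 and from 92.9 to 136 (−0.03). The value of *Lamb1* was −0.64 without *Gp130* ecKO 2 and −0.041 without *Gp130* ecKO 3.

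*Lamc1*, the gamma chain shared by nearly all laminins, had the lowest p of the group. It lies on chromosome 1 from 153094597 to 153208774 on the minus strand, just downstream of the first sequence printed above. Its CPM was 483, 367 and 511 in controls 1 to 3 and 165, 204 and 170.4 in *Gp130* ecKO 1 to 3. The means were 454 ± 76.4 and 179.8 ± 21.2 (SD, n = 3 each), 2.52-fold lower in *Gp130* ecKO uteri, and the highest *Gp130* ecKO uterus was well below the lowest control. In the quasi-likelihood test *Lamc1* had a log2 fold change of −1.34 with a standard error of 0.20 (adjusted p = 0.0548, unadjusted p = 0.00021), which lay between −1.43 and −1.24 with any 1 uterus left out. The adjusted p was 0.0179 without control 2, 0.0407 with no filter on low counts and 4.79e-07 with DESeq2. In the quasi-likelihood test it lay between 0.112 and 0.176 without any other uterus. It was 0.0630 with the legacy form of that test and 0.0866 with the replicate number as a block. *Lamc3*, a gamma chain of a few tissues, ranged from 7.48 to 30.3 CPM in controls and from 3.897 to 38.2 in *Gp130* ecKO uteri. Its groups overlapped fully, and its log2 fold change of 0.05 became −0.032 with upper quartile scaling.

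Of the 6 collagen IV chains, the pair that makes the network of nearly every basement membrane had lower CPM in every *Gp130* ecKO uterus. Neither gene of the pair was called by the quasi-likelihood test, and the other 4 chains overlapped between groups. *Col4a1* had a CPM of 512, 529 and 388 in controls 1 to 3 and 93.45, 251 and 160.2 in *Gp130* ecKO 1 to 3. *Col4a2*, its partner, had 381, 377 and 269.7 against 69.0, 181 and 133. In both genes the groups did not overlap, *Gp130* ecKO 1 was the lowest and *Gp130* ecKO 2 the nearest to the controls. The log2 fold change was −1.50 for *Col4a1* (standard error 0.35, quasi-likelihood adjusted p = 0.0861, 0.0026 with DESeq2) and −1.42 for *Col4a2* (standard error 0.35, quasi-likelihood adjusted p = 0.0906, 0.00489 with DESeq2). The 2 genes lie head to head on chromosome 8, with *Col4a1* on the minus strand starting at 11362826 and *Col4a2* on the plus strand starting at 11362509, so their first exons overlap. The log2 ratio of *Col4a2* to *Col4a1* by TPM (the count scaled for gene length and depth) was −0.62 ± 0.13 in controls and −0.81 ± 0.18 in *Gp130* ecKO uteri (SD, n = 3 each), with overlapping groups (exact two-sided permutation test, p = 0.2).

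The minor collagen IV chains did not share this pattern. *Col4a5*, which forms a network with *Col4a6* in smooth muscle and with *Col4a3* and *Col4a4* in kidney and lung, ranged from 47.3 to 101 CPM in controls and from 44.7 to 72.6 in *Gp130* ecKO uteri (log2 fold change −0.32). *Col4a6* ranged from 15.3 to 32.55 and from 8.29 to 29.7 (−0.28), and *Col4a3* from 1.25 to 2.20 and from 1.36 to 1.74 (−0.13). *Col4a4* ranged from 2.40 to 4.05 in controls and from 2.94 to 6.88 in *Gp130* ecKO uteri (0.67, quasi-likelihood adjusted p = 0.341, but 0.37 without *Gp130* ecKO 3 and 0.97 without control 2). It was the only collagen IV chain with a fold change above 0 over all 6 uteri, but *Col4a6* was also above 0 without control 2 (0.080) or *Gp130* ecKO 3 (0.11), *Col4a5* without control 2 (0.0066) and *Col4a3* without control 3 (0.072). *Pxdn*, the peroxidase that forms the sulfilimine bonds between collagen IV trimers, ranged from 109 to 114 CPM in controls and from 81.7 to 113 in *Gp130* ecKO uteri (−0.22).

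**Figure D2:**
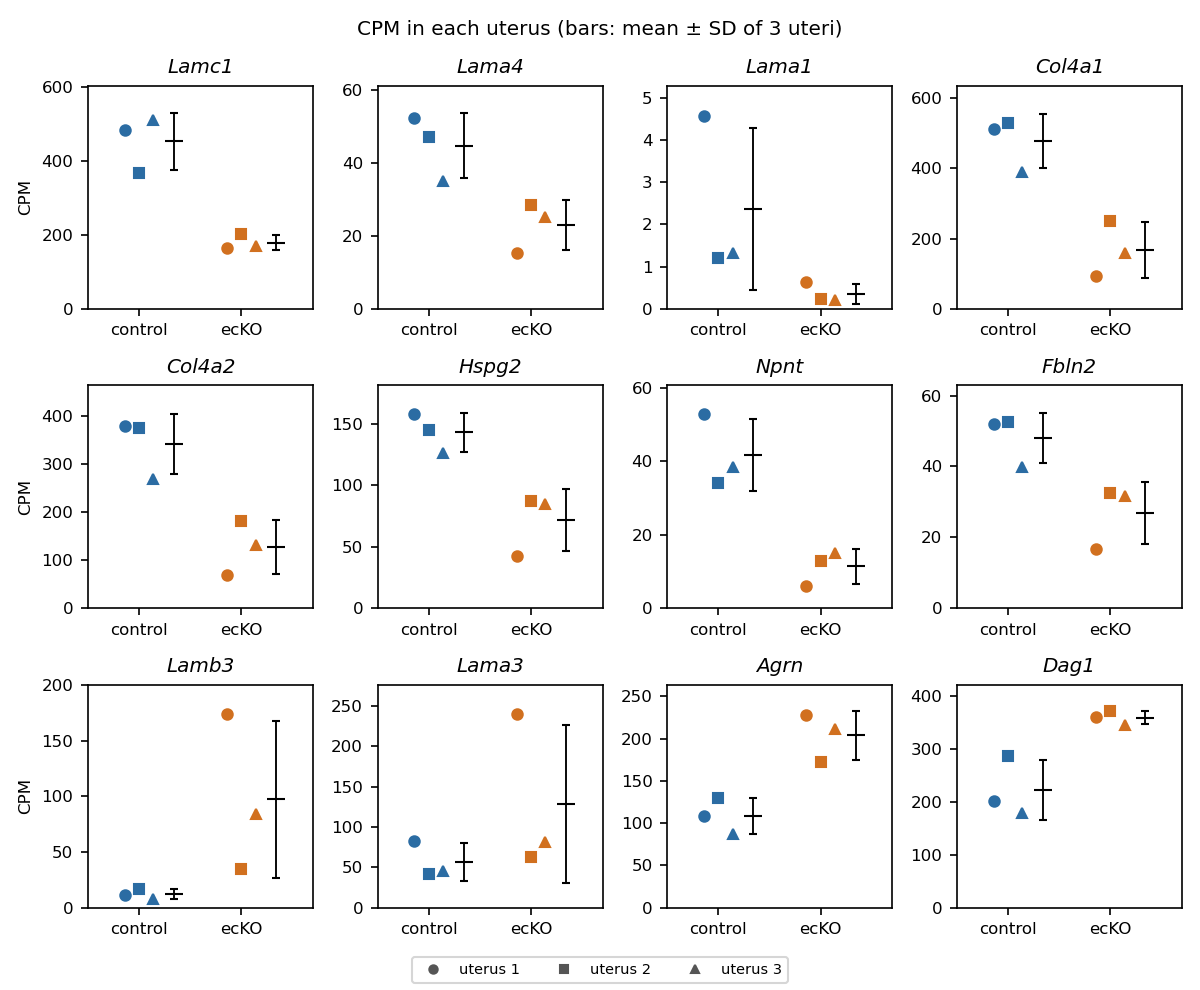
CPM of 12 members in each uterus, on linear axes from 0, with the mean and SD of 3 uteri to the right of the points of each group. The groups are apart in every panel except *Lama3*, and *Gp130* ecKO 1 (circle) is the lowest of its group in *Lamc1*, *Lama4*, *Col4a1*, *Col4a2*, *Hspg2*, *Npnt* and *Fbln2* and the highest in *Lama1*, *Lamb3*, *Lama3* and *Agrn*.

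The linkers between the laminin and collagen IV networks went in 2 directions. *Hspg2* encodes perlecan, the main heparan sulfate proteoglycan of vessel and stromal basement membranes (chromosome 4, 137196079 to 137298231, plus strand). It measured 158, 145 and 126 CPM in the 3 controls against 42.6, 87.3 and 85.2 in *Gp130* ecKO uteri, without overlap (log2 fold change −0.998, standard error 0.28, quasi-likelihood adjusted p = 0.108, 0.028 with DESeq2). *Agrn* encodes agrin, another heparan sulfate proteoglycan, which binds laminin and dystroglycan (chromosome 4, 156249740 to 156282014, minus strand). It measured 108, 130 and 86.8 CPM in the 3 controls against 228, 172 and 211 in *Gp130* ecKO uteri, again without overlap but with the *Gp130* ecKO uteri above. The log2 fold change of *Agrn* was 0.91 (standard error 0.20, quasi-likelihood adjusted p = 0.0811), and 1.09 without control 2 (adjusted p = 0.0437). Leaving out any other uterus gave *Agrn* an adjusted p between 0.121 and 0.248 in the same test. *Dag1*, which encodes dystroglycan, the cell surface receptor of laminin, agrin and perlecan, had 202, 287 and 179 CPM in controls and 361, 373 and 347 in *Gp130* ecKO uteri. The 3 *Gp130* ecKO uteri lay close together and above all controls (log2 fold change 0.70, standard error 0.21, quasi-likelihood adjusted p = 0.118, 0.0349 with DESeq2).

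The remaining linkers had lower means in *Gp130* ecKO uteri, with groups that overlapped. *Nid1* and *Nid2* encode nidogens, which bridge the laminin gamma chain and collagen IV. *Nid1* had 203, 393 and 351 CPM against 174, 295 and 115 (log2 fold change −0.70), and *Nid2* had 16.6, 22.6 and 9.47 against 7.28, 14.3 and 8.125 (−0.72). *Col15a1* and *Col18a1* encode collagens that carry heparan or chondroitin sulfate chains at the stromal face of the sheet. *Col15a1* had 93.8, 252 and 244 CPM against 139, 165 and 78.1 (−0.62), and *Col18a1* had 293, 427 and 291 against 131, 340.3 and 112 (−0.79). None of these 4 had an unadjusted p under 0.05 over all 6 uteri without a block. With the replicate number as a block, *Col18a1* was at −0.96 (unadjusted p = 0.0109 and adjusted p = 0.134 in the quasi-likelihood test). The values of these 4 genes moved with single uteri. Without *Gp130* ecKO 2, *Col18a1* was at −1.46 (unadjusted p = 0.0011 in the quasi-likelihood test), *Nid1* at −1.12 and *Nid2* at −1.08. Without *Gp130* ecKO 3, *Col18a1* was at −0.49, *Nid1* at −0.40 and *Col15a1* at −0.34, and without control 2 *Nid2* was at −0.37 and *Col15a1* at −0.36.

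Of the collagens that anchor epithelia, both had lower means in *Gp130* ecKO uteri and both rested on few counts or on 1 uterus. *Col7a1*, the collagen of anchoring fibrils, had 14.8, 22.4 and 57.9 CPM in controls and 6.24, 15.2 and 9.58 in *Gp130* ecKO uteri. Control 3 was the highest and the groups overlapped by control 1 and *Gp130* ecKO 2, although by TPM they did not (log2 fold change −1.61, standard error 0.55, quasi-likelihood adjusted p = 0.140, and −0.85 without control 3). *Col17a1*, the transmembrane collagen of hemidesmosomes, had 13, 17 and 7 counts in controls and 3, 2 and 8 in *Gp130* ecKO uteri. At this depth its log2 fold change of −1.60 (standard error 0.59, quasi-likelihood adjusted p = 0.157) is a value of very few reads, and it ranged from −2.33 without *Gp130* ecKO 3 to −1.21 without *Gp130* ecKO 2.

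*Npnt* encodes nephronectin, a ligand of integrin alpha 8 beta 1 (chromosome 3, 132587506 to 132656257, minus strand). It had the largest log2 fold change below 0 among members above 10 CPM in the controls. Its CPM was 52.8, 34.1 and 38.5 in controls 1 to 3 and 6.15, 13.0 and 15.0 in *Gp130* ecKO 1 to 3, with means of 41.8 ± 9.79 and 11.4 ± 4.66 (SD, n = 3 each), 3.67-fold lower. The highest *Gp130* ecKO uterus was far below the lowest control. By the quasi-likelihood test its log2 fold change was −1.87 with a standard error of 0.36 (adjusted p = 0.0677, unadjusted p = 0.00099), between −2.09 and −1.57 with any 1 uterus left out, and −1.97 with an adjusted p of 0.0436 without control 2. Leaving out any other uterus gave *Npnt* an adjusted p between 0.121 and 0.166 in the same test. The Fraser complex, which joins the sheet to the tissue beneath it, was weakly detected. *Fras1* had 1.29, 1.54 and 1.53 CPM against 0.859, 0.692 and 1.078, without overlap (log2 fold change −0.73, unadjusted p = 0.0882). *Frem1* ranged from 1.697 to 3.33 and from 1.62 to 2.57 (−0.29), and *Frem2* from 2.43 to 11.6 and from 1.36 to 6.425 (−0.90, but 0.23 without control 2).

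Of the 5 fibulins and matricellular members, *Fbln2* and *Smoc2* were lower with an unadjusted p under 0.05 and none was called. *Fbln2*, a fibulin that binds nidogen, perlecan and laminin, had 51.9, 52.4 and 39.7 CPM in controls and 16.8, 32.4 and 31.6 in *Gp130* ecKO uteri. The groups did not overlap (log2 fold change −0.83, standard error 0.28, quasi-likelihood adjusted p = 0.135, 0.0720 with DESeq2). *Fbln1* had 143, 73.0 and 49.0 against 62.0, 42.1 and 55.0, and its log2 fold change of −0.74 was −0.18 without control 1. *Smoc2*, a calcium-binding matricellular protein, had 35.8, 43.5 and 49.9 against 25.2, 28.5 and 33.95, without overlap (−0.56, standard error 0.20, quasi-likelihood adjusted p = 0.154, 0.112 with DESeq2). Its relative *Smoc1* ranged from 30.1 to 162 and from 30.9 to 71.9 (−0.86, but −0.23 without control 3). *Tinagl1*, a laminin-binding protein related to tubulointerstitial nephritis antigen, had 65.3, 77.3 and 35.5 in controls and 182, 74.2 and 79.6 in *Gp130* ecKO uteri. Only *Gp130* ecKO 1 stood clearly above the controls (0.91, quasi-likelihood adjusted p = 0.223, and 0.38 without *Gp130* ecKO 1).

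Markers of the cell types that make these components also differed between the groups, and in bulk RNA fewer cells of a type and less RNA per cell cannot be told apart. The summed CPM of 10 endothelial markers ranged from 604 to 1500 in controls and from 325 to 510.3 in *Gp130* ecKO uteri, and 8 of the 10 were lower with an unadjusted p under 0.05, beside 12.9% of all tested genes. For 6 pericyte markers the sums ranged from 253 to 505 and from 124 to 220.2 (5 of 6 lower), and for 10 stromal markers from 4525 to 5870 and from 2487 to 3691 (6 of 10 lower). The sum of 12 epithelial markers ranged from 2607 to 4552 in controls and from 6114 to 8043 in *Gp130* ecKO uteri, with 6 of 12 higher at the same threshold, beside 12.1%, and none lower. The part of cell makeup in the values of the basement membrane genes was not tested.

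Mesothelial markers also separated the groups, with sums from 172 to 263 in controls and from 70.1 to 125 in *Gp130* ecKO uteri (1 of 5 lower with an unadjusted p under 0.05). The remaining lists overlapped between the groups. Smooth muscle markers ranged from 778 to 3015 and from 583 to 3251 (none of 9 with an unadjusted p under 0.05), and macrophage markers from 389 to 489 and from 252 to 544 (1 of 8 lower). Blood markers ranged from 179 to 338 and from 47.8 to 323 (none of the 5 tested). Blastocyst markers summed to between 4.41 and 13.96 CPM in controls and between 5.38 and 7.73 in *Gp130* ecKO uteri, over the 9 of 10 genes that were found, 2 of which were at 0 in every uterus.

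**Figure D3:**
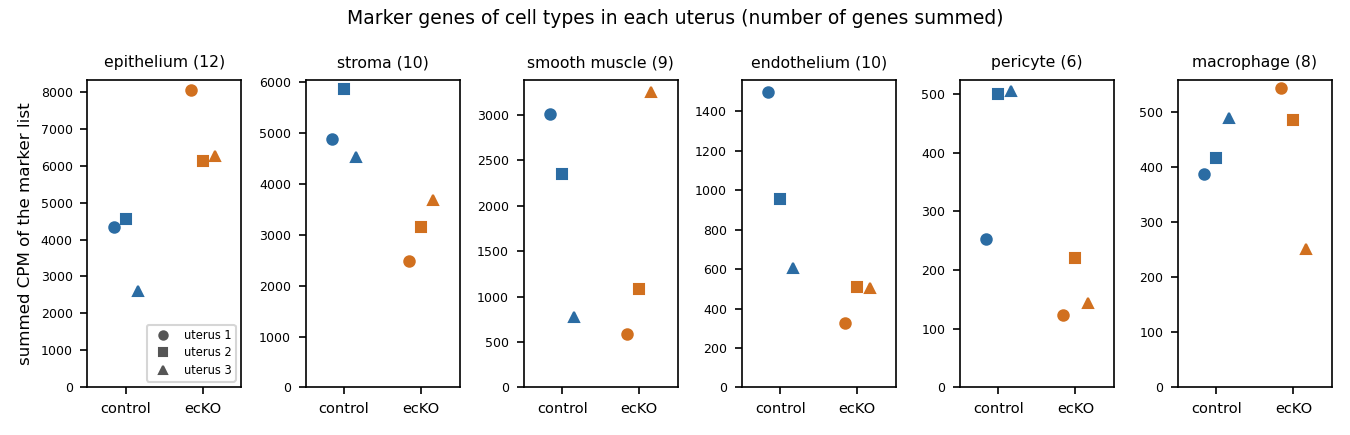
Summed CPM of the marker genes of 6 cell types in each uterus, on linear axes from 0, with the number of genes in brackets and a symbol for each uterus. The groups do not overlap for epithelium, stroma, endothelium and pericytes, and smooth muscle is highest in control 1 and *Gp130* ecKO 3.

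Not all members followed the groups. In 8 members (*Lama2*, *Lamb1*, *Lamc3*, *Col4a5*, *Col4a6*, *Nid1*, *Col15a1* and *Smoc1*), control 1 was the lowest control and *Gp130* ecKO 3 the lowest *Gp130* ecKO uterus, an order that 15.9% of all tested genes shared. In all 8 the groups overlapped. These are the 2 uteri with the highest summed smooth muscle markers of their groups, 3015 in control 1 and 3251 in *Gp130* ecKO 3, whose part was not tested. *Gp130* ecKO 1 was the lowest of its group in 14 members (40%), *Lamc1*, *Col4a1*, *Col4a2*, *Hspg2*, *Lama4* and *Npnt* among them, beside 31.5% of all tested genes. It was the highest in 8 (22.9%), among them *Lamb3*, *Lama3*, *Agrn* and *Tinagl1*, beside 34.1%. These orders were noticed after the values were seen.

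**Figure D4:**
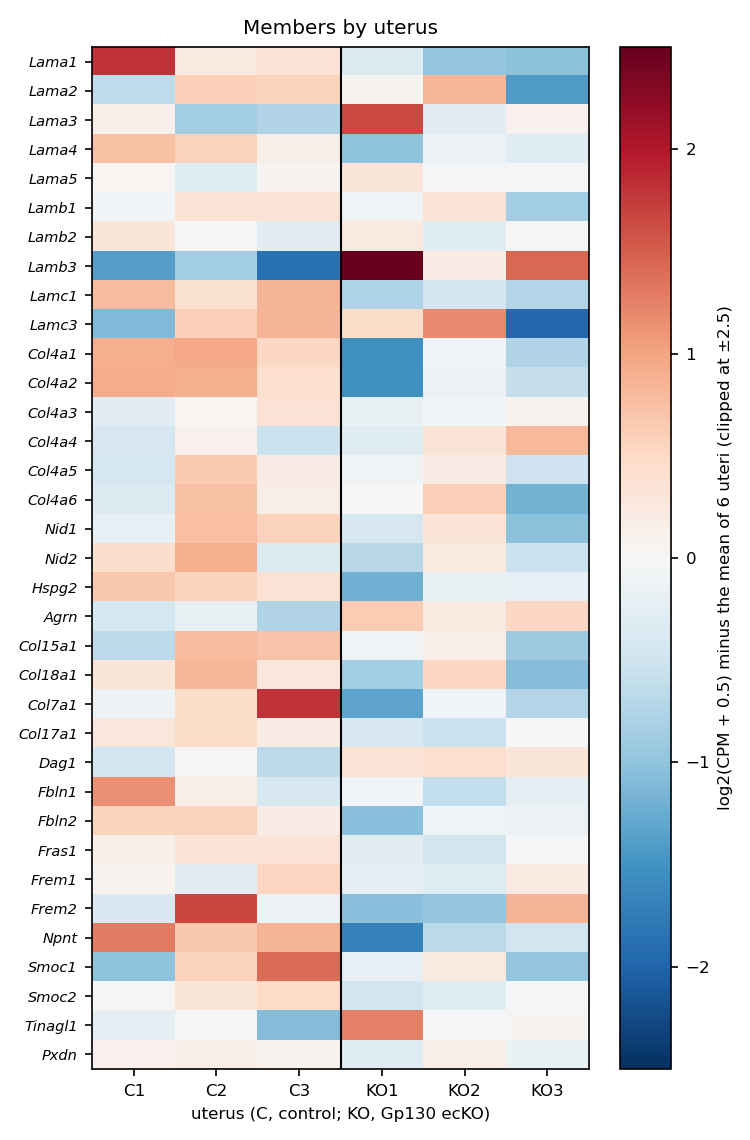
Log2(CPM + 0.5) of each of the 35 genes in each uterus after subtracting the mean over the 6 uteri, on a colour scale that stops at ±2.5. Red left of the line with blue right of it marks genes lower in *Gp130* ecKO uteri, as in *Lamc1*, *Col4a1*, *Col4a2* and *Npnt*, and *Lama2*, *Lamc3* and *Col4a6* are instead low in control 1 and *Gp130* ecKO 3.

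Levels of different genes were compared by TPM. In controls, *Lamc1* had the highest mean TPM of the group, 166 ± 33.8 (SD, n = 3), followed by *Col15a1* at 118 ± 64.4, *Col4a1* at 108 ± 23.5 and *Col18a1* at 91.7 ± 19.1, and the last 3 were within each other's spread. In *Gp130* ecKO uteri *Dag1* was highest at 93.8 ± 13.7, followed by *Tinagl1* at 83.9 ± 45.9, *Col15a1* at 69.0 ± 22.4, *Agrn* at 66.0 ± 5.03 and *Lamc1* at 62.8 ± 8.82, and the spreads of these neighbours overlapped. *Lamb3* was at place 28 of 35 in controls, at 4.16 ± 1.16 TPM, and at place 11 in *Gp130* ecKO uteri, at 33.3 ± 24.5. At least 1 TPM was measured in every uterus for 27 members, and 6 were under 1 TPM in every uterus.

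The makeup of the laminin chains followed from these levels. *Lamb3* made up 5.19%, 7.25% and 3.81% of the summed TPM of the 3 beta chains in controls 1 to 3, and 47.0%, 15.5% and 34.4% in *Gp130* ecKO 1 to 3. *Lama4* made up 22.8%, 22.6% and 20.2% of the alpha chains in controls and 6.24%, 14.8% and 13.0% in *Gp130* ecKO uteri, without overlap. *Lama3* made up 14.6%, 10.01% and 8.40% in controls and 44.8%, 17.1% and 22.7% in *Gp130* ecKO uteri, but its share overlapped between groups when CPM was used. The summed TPM of the 6 collagen IV chains was 205, 246 and 174 in controls and 66.0, 159.8 and 81.1 in *Gp130* ecKO uteri, without overlap. The share of *Col4a1* and of *Col4a2* within that sum overlapped between groups, although by CPM the share of *Col4a1* was lower in every *Gp130* ecKO uterus. The share of *Col4a4* was small but did not overlap by TPM or by CPM, with 0.161%, 0.232% and 0.189% of the summed TPM in controls and 0.621%, 0.451% and 1.05% in *Gp130* ecKO uteri. The share of *Col4a5* was higher in every *Gp130* ecKO uterus by CPM and overlapped by TPM.

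**Figure D5:**
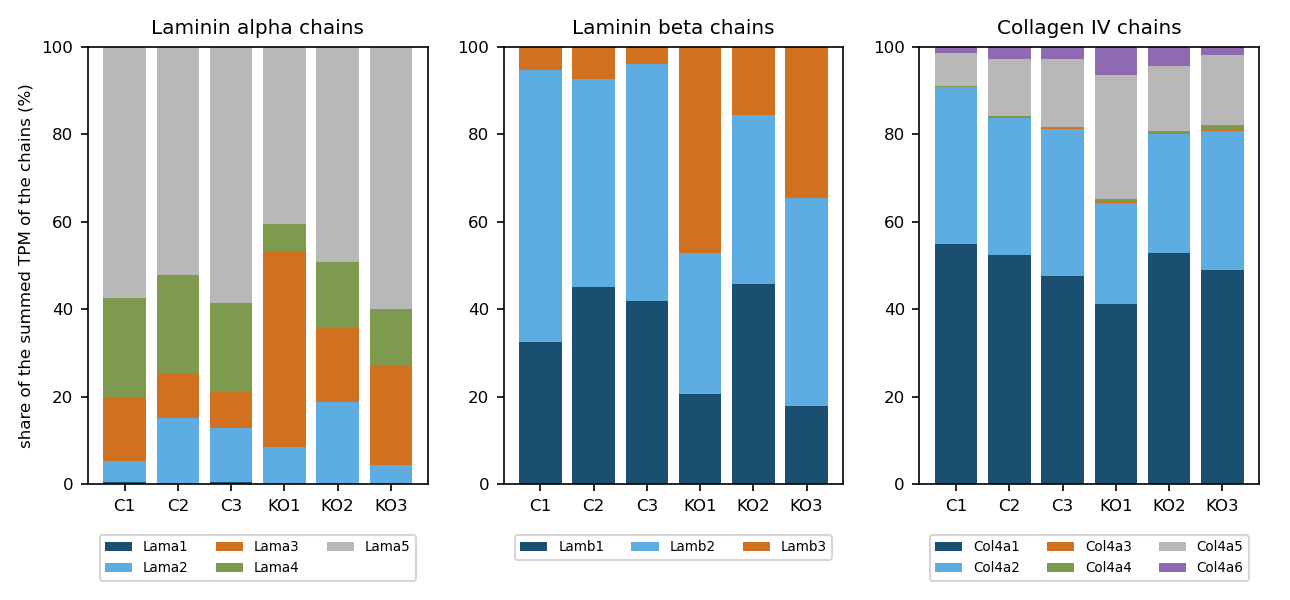
Share of each chain in the summed TPM of its family in each uterus (C1 to C3, controls; KO1 to KO3, *Gp130* ecKO), as stacked bars that add to 100%. *Lamb3* is at most 7.25% of the beta chains in controls and at least 15.5% in *Gp130* ecKO uteri, and *Lama4* is at least 20.2% of the alpha chains in controls and at most 14.8% in *Gp130* ecKO uteri.

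Of 12 ratios between chains compared by TPM, 4 did not overlap between the groups. The log2 ratio of *Lamb3* to *Lamb1* was −2.91 ± 0.47 in controls and 0.19 ± 1.53 in *Gp130* ecKO uteri, and that of *Lama3* to *Lama5* was −2.38 ± 0.41 and −0.92 ± 0.93 (SD, n = 3 each). The log2 ratio of *Lama4* to *Lama5* was −1.36 ± 0.17 and −2.21 ± 0.48, and that of *Lama1* to *Lama5* was −7.27 ± 0.73 and −9.64 ± 0.82. The exact two-sided permutation test gave p = 0.1 for each of the 4, the lowest that 3 against 3 can give, and 0.3 after adjustment over the 12. By CPM, *Lama3* to *Lama5* overlapped and *Col4a5* to *Col4a1* did not, with the latter ratio higher in *Gp130* ecKO uteri.

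TPM and CPM differed where the weighted gene length differed, which RSEM averages over transcripts by their estimated share. *Lama5* had weighted lengths of 2156, 2548 and 2436 bases in controls and 4621, 4435 and 3177 in *Gp130* ecKO uteri. Its TPM was therefore lower in every *Gp130* ecKO uterus (64.1, 43.7 and 63.7 against 39.1, 35.01 and 39.9) although its CPM overlapped. *Col4a1* had 5686, 5387 and 6566 bases in controls and 4835, 4542 and 5064 in *Gp130* ecKO uteri, and its groups overlapped by TPM (112, 129 and 82.9 against 27.3, 84.7 and 39.7). *Col7a1* was lower in every *Gp130* ecKO uterus by TPM (6.41, 7.53 and 36.0 against 2.44, 4.03 and 3.11) and overlapped by CPM. Lengths did not overlap between groups in 9 members. They were longer in 6 (*Lama4*, *Lama5*, *Lamb3*, *Col4a5*, *Agrn* and *Pxdn*), beside 9.36% of the 13575 tested genes with more than 1 transcript, and shorter in 3 (*Col4a1*, *Col4a2* and *Dag1*), beside 9.4%. In exact permutation tests the lowest adjusted p was 0.389, and short single reads place few molecules on 1 transcript with certainty.

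Some members may share reads with other genes. Expected counts were not whole, within 0.005, in at least 1 uterus for *Lama2*, *Lamc3*, *Col4a1*, *Col4a3*, *Nid1* and *Nid2*, so part of their reads fitted more than 1 gene. Exons of 20 members overlap a gene on the opposite strand and those of 2 overlap one on the same strand. The libraries keep strand, but whether counting used it is not stated in the sources used here. Among the genes with an opposite-strand partner, *Lamb3*, *Npnt*, *Hspg2*, *Lama4* and *Col4a2* had whole counts in all 6 uteri, so no read was seen to be split with the partner, and *Col4a1* was not whole in 1 uterus. *Lamc1*, *Agrn* and *Dag1* overlap no other gene.

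The other genes of the pathway, counted in 4 lists with 60 of 61 genes tested, gave 5 higher and 22 lower genes with an unadjusted p under 0.05, beside 12.1% and 12.9% of all tested genes, and none was called by the quasi-likelihood test, beside 0.157%. The exact test called 11 (2 higher, 9 lower), beside 7.54% of all tested genes. The likelihood ratio test and DESeq2 each called 12 (2 higher, 10 lower), beside 7.93% and 9.31%. Without control 2 the quasi-likelihood test called 5 (1 higher, 4 lower), beside 5.23%. With no filter on low counts it called 2 (*Egfl6* higher and *Timp1* lower), beside 105 of the 29916 genes then tested. Of 17 receptors and adhesion linkers, 1 was higher and 4 were lower. *Sgcb*, a sarcoglycan of the dystroglycan complex, had a mean CPM of 22.3 ± 2.92 in controls and 11.7 ± 2.03 in *Gp130* ecKO uteri (log2 fold change −0.93, quasi-likelihood adjusted p = 0.0922). *Dst*, the linker of hemidesmosomes to keratin, had 71.9 ± 18.0 and 120.5 ± 19.7 (0.75, adjusted p = 0.118 in the same test). Of 13 other basement membrane components tested, 1 was higher and 5 were lower. *Egfl6*, an integrin-binding matrix protein, had 1.42, 2.08 and 0.667 CPM in controls and 17.7, 8.81 and 10.7 in *Gp130* ecKO uteri. Its groups were far apart (log2 fold change 3.11, standard error 0.47, quasi-likelihood adjusted p = 0.0548). *Vwa1*, a perlecan-binding protein, had a mean of 45.1 ± 17.3 and 16.9 ± 5.21 (−1.42, adjusted p = 0.0949 in the same test).

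Among 16 enzymes and chaperones of collagen folding and crosslinking, 2 were higher and 6 lower with an unadjusted p under 0.05, beside 12.1% and 12.9% of all tested genes, and none was called by the quasi-likelihood test. *Plod3*, which hydroxylates and glycosylates collagen lysines and is needed for collagen IV secretion, had a mean CPM of 65.6 ± 8.73 in controls and 37.1 ± 3.86 in *Gp130* ecKO uteri (log2 fold change −0.82, quasi-likelihood adjusted p = 0.0766). *Loxl4*, a lysyl oxidase, had 0.765 ± 0.215 and 3.34 ± 1.02 (2.11, adjusted p = 0.0727 in the same test). Among 14 proteases and inhibitors that act on the sheet, 1 was higher and 7 lower at the same threshold. The quasi-likelihood test called none of them. The exact test, the likelihood ratio test and DESeq2 each called *Timp1*, *Adamts1* and further genes of this list, beside 7.54%, 7.93% and 9.31% of all tested genes. The quasi-likelihood test without control 2 also called *Timp1* and *Adamts1*, and not these alone, beside 5.23% of the genes then tested. *Timp1*, an inhibitor of matrix metalloproteinases, had 29.1, 14.4 and 29.1 CPM in controls and 2.76, 4.27 and 6.14 in *Gp130* ecKO uteri, without overlap (−2.46, standard error 0.41, quasi-likelihood adjusted p = 0.0597). *Adamts1*, a secreted protease of proteoglycans, had a mean of 54.7 ± 10.7 and 23.6 ± 3.16 (−1.21, standard error 0.21, quasi-likelihood adjusted p = 0.0622). All means are given with the SD of 3 uteri.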

How the data were processed

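By the labels and the study's methods, the authors made strand-specific poly(A) libraries from whole-uterus RNA, trimmed single reads with fastp 0.23.2, removed ribosomal reads, mapped the rest to GRCm39 with STAR 2.7.10a and quantified genes with RSEM 1.3.3. The authors deposited, for each uterus, RSEM's expected count (not normalized), TPM and FPKM (both scaled for length and depth) and the weighted gene length as an average over transcripts. FPKM was not used. The annotation version is not given in the sources used here.

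Expected counts were rounded and tested in edgeR 4.0.16 (R 4.3.3) with TMM scaling, filterByExpr, the quasi-likelihood F test (glmQLFit without the legacy form, glmQLFTest) and Benjamini-Hochberg adjustment over 16605 genes. Standard errors are the log2 fold change over the square root of F. Ratios and lengths were compared with exact two-sided permutation tests. Symbols, coordinates and start sites came from GENCODE M39, which holds 56017 of 56748 identifiers, and upstream bases from the GRCm39 genome. The fit was tested on simulated data. Alternatives were edgeR's exact, likelihood ratio and legacy tests, DESeq2 1.42.0, other scalings and filters, counts left unrounded, a block on the replicate number, each uterus left out and, added after seeing the data, ratios of CPM. All members are named, and of each pathway list the 2 genes with the lowest p. Members and lists were chosen with earlier results of these data known. Depth ranged from 13960748 to 25906443 counts per uterus, least in control 3, which makes its low counts the least precise. Libraries of a group were compared and no pair was near identical.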

Additional observations from a re-analysis of the deposited data

How the results depend on the processing

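The number of genes called depended on the test and on single uteri. It was 26 as reported, 7 with the legacy quasi-likelihood form, 105 with no filter beyond 1 count, 1252 with the exact test, 1317 with the likelihood ratio test and 1546 with DESeq2. With a uterus left out it ranged from 1 to 897: it was 2, 897 and 3 without controls 1, 2 and 3, and 6, 3 and 1 without *Gp130* ecKO 1, 2 and 3. The cause was not tested. The number of basement membrane genes called, 0 as reported, was 6 with the exact test, 6 with the likelihood ratio test, 7 with DESeq2, 1 with no filter, and 0 to 4 with a uterus left out (4 without control 2). Their median log2 fold change of −0.62 lay between −0.65 and −0.37 with a uterus left out (−0.37 without control 2, −0.44 without control 3 and −0.49 without *Gp130* ecKO 3). Upper quartile scaling moved the median of all tested genes to −0.11 and that of the members to −0.70, a difference of −0.59. Members with an unadjusted p under 0.05 numbered 11 to 17 over all alternatives. The number of members whose weighted lengths did not overlap was 9 to 16 with a uterus left out (16 without *Gp130* ecKO 3).

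Of 594 fold changes of members under 17 alternatives, 580 kept their direction. The 14 that did not were in 7 members, none with an unadjusted p under 0.05. With a uterus left out, *Lama2* ranged from −0.78 to 0.25 (0.057 without control 2, 0.25 without *Gp130* ecKO 3), *Lamb2* from −0.17 to 0.16 (0.16 without control 1, 0.11 without *Gp130* ecKO 2), *Lamc3* from −0.63 to 0.58 (−0.33 without control 1, −0.63 without *Gp130* ecKO 2), *Col4a3* from −0.28 to 0.072 (without control 3), *Col4a5* from −0.54 to 0.0066 (without control 2), *Col4a6* from −0.74 to 0.11 (0.080 without control 2, 0.11 without *Gp130* ecKO 3) and *Frem2* from −1.999 to 0.23 (without control 2). *Lamc3* was also −0.032 with upper quartile scaling and −0.0021 with no scaling factors.

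The replicate numbers were not shown to pair the uteri. Deviations from the group means of same-numbered uteri correlated at 0.10, 0.07 and −0.20, and not every uterus correlated best with its own number. With the replicate number as a block, 6 genes were called, 17 members had an unadjusted p under 0.05, none was called, their median was −0.56 and *Lamc3* was −0.070. Depth limits *Lama1* and *Col17a1* most, with 20 or fewer counts in several uteri.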
